A study of Mus musculus with 6 samples.

Results

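The genes described here make cholesterol, control that synthesis, move cholesterol out of the cell or into storage, and build and modify fatty acids. They are 43 genes of the 57010 in the deposited count table, chosen by gene symbol from a list of pathway members: 18 genes of cholesterol synthesis, 6 of its regulation and of sterol transport, 9 of efflux, liver X receptor (LXR) action and cholesterol storage, and 10 of fatty acid synthesis and modification. RNA was measured in RAW264.7 cells, a mouse macrophage line grown from a virus-induced tumour. Both groups had first received lipopolysaccharide (LPS), a bacterial cell wall component that drives macrophages to an inflammatory state. Vesicles from tendon stem cells (EVs) were then added, taken from normoxic donor cells for 3 libraries (normoxic-EV) and from hypoxia-preconditioned donor cells for the other 3 (hypoxic-EV). No LPS dose or time is given in the labels, the line stands in for primary macrophages, and no group without vesicles was analysed here. Every value therefore compares one vesicle treatment with the other. A value written with ± is a mean and its SD over the 3 libraries of a group (n = 3).

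Cells make cholesterol from acetyl-CoA through mevalonate, farnesyl diphosphate, squalene and lanosterol. When sterols in the endoplasmic reticulum are low, the escort protein SCAP carries the transcription factors SREBP1 and SREBP2 to the Golgi, where they are cleaved and freed to switch on synthesis genes, and when sterols are high, INSIG proteins hold SCAP back. The LXRs, nuclear receptors for oxysterols, act on the other side: in macrophages they switch on the efflux pumps ABCA1 and ABCG1, lipid transfer proteins and, through SREBP1, fatty acid synthesis. Macrophages take up much cholesterol with the debris they clear, and both arms are known to respond to LPS in these cells.

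Promoters of 4 genes are shown because the sterol response of synthesis genes is known to run through such stretches, where SREBPs bind with the factor NF-Y. Hmgcs1 was the single matched gene whose promoter held the sterol regulatory element in the form searched, Msmo1 and Hsd17b7 were lower with hypoxic-EV, and Fasn was higher. Each sequence is the 250 bases before the RefSeq start site in build GRCm38.p6, a different build from that of the counts, read 5′ to 3′ on the gene's strand. Capitals mark the sterol regulatory element TCACNCCAC and the NF-Y box CCAAT on either strand, the latter reading ATTGG on the other strand.
Hmgcs1, chr13:119690101-119690350, plus strand: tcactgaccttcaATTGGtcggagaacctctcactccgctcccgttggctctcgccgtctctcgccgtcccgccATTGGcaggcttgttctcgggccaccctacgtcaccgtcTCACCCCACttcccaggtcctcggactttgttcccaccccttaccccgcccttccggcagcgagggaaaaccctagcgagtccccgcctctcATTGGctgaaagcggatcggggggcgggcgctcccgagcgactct
Msmo1, chr8:64733579-64733828, minus strand: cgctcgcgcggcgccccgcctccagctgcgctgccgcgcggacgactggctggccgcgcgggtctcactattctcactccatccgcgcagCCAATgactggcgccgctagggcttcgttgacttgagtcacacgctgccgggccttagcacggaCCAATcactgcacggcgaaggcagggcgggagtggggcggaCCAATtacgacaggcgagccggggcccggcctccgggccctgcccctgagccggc
Hsd17b7, chr1:169969206-169969455, minus strand: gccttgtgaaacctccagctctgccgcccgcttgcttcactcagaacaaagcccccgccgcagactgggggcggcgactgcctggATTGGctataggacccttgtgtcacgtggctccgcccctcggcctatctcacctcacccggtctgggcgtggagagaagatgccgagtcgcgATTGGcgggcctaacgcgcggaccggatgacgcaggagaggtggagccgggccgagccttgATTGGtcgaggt
Fasn, chr11:120824548-120824797, minus strand: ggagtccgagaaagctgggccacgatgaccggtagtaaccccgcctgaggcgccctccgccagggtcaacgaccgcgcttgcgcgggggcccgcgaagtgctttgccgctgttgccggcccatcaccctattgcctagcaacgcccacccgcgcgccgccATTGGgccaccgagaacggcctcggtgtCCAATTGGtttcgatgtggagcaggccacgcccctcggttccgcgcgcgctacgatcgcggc

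The sterol element of Hmgcs1 began 137 bases before the start site, and the promoter also held 3 NF-Y boxes. Msmo1, Hsd17b7 and Fasn held 3 NF-Y boxes each, of which a pair in Fasn, on opposite strands, overlapped. Of the 43 genes, 35 were matched to RefSeq, with 47 promoters; those without an entry were Fdps, Fdft1, Sqle, Stard4, Abcg1, Scd1, Scd2 and Fads1. In the same 250 bases, the NF-Y box was found in 77.8% of 18 promoters of synthesis genes, in 50% of 8 of fatty acid genes, in 27.3% of 11 of efflux genes, in 50% of 10 of regulation genes, and in 33.8% of all 32851 promoters. These shares count promoters, and Dhcr7 and Pmvk have several each, so the 18 promoters are not the 18 synthesis genes. The box lay in promoters of 14 synthesis genes. The sterol element was found in 1 of the 47 promoters (2.13%) and in 1.05% of all. The E-box CANNTG, in 66.0% of the 47 and 66.2% of all, and the LXR direct repeat (DR4), in none of the 47 and 0.0152% of all, were searched on both strands too. The LXR repeat was searched only in an exact form of 16 bases, free in its spacer alone. The sterol element was searched only as TCACNCCAC, free at the N alone. Variant forms of either were not searched. The absence of a match therefore does not show that a promoter lacks an LXR or sterol element. A match describes letters in a window and no binding was measured.

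Library totals ran from 16751665 to 23422328 counts. Levels are given as CPM, counts scaled to library size, and 3 counts, the upper limit where none is seen, were worth 0.129 to 0.179 CPM. Of 10 macrophage markers, 9 passed the filter on low counts, 2 were higher and 6 lower with hypoxic-EV, and Lyz2 stood at 7946 ± 208 CPM and 6091 ± 176 CPM. Of 10 tendon and stromal markers, 4 (Col1a2, Col3a1, Tnmd and Thbs4) had 0 counts in all libraries, and the list summed to 0.957 to 1.87 CPM in normoxic-EV and 0.817 to 1.36 CPM in hypoxic-EV. The 10 mitosis markers were each higher with hypoxic-EV, summing to 1035 to 1124 CPM and 2171 to 2374 CPM. Mitochondrial genes took 2.13%, 2.23% and 2.14% of the counts in normoxic-EV and 3.01%, 3.05% and 2.91% in hypoxic-EV, with no overlap. The part of these differences in the results below was not tested. RNA was pooled over cells, so more RNA per cell and more cells with the RNA cannot be told apart.

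Between the vesicle treatments, most changed genes among the cholesterol synthesis members and the efflux, LXR and storage members were lower with hypoxic-EV. Acat2 and Pltp were the exceptions, and most of the 10 fatty acid members were higher. Further efflux and fatty acid genes outside the 43, given below, did not follow this pattern. Of the 43 genes, 42 passed the filter, and of these 8 rose and 14 fell at an adjusted p under 0.05 in the quasi-likelihood test of edgeR, a share of 52.4%. Over all 13303 genes tested the share called was 44.2%, with 22.7% higher and 21.5% lower. Fatty acid genes had 6 higher and 3 lower among 10, efflux and storage genes 1 higher and 4 lower among 8, synthesis genes 1 higher and 6 lower among 18, and regulation genes 0 higher and 1 lower among 6. By share called, the synthesis genes (38.9%) and regulation genes (16.7%) were under the share over all genes, and the fatty acid genes (90%) above it. The changes were small: log2 fold changes of hypoxic-EV over normoxic-EV ran from -0.72 (Scd1) to 0.82 (Pltp), and 4 of the 42 reached 0.5 in either direction. None of the members was among the 462 genes of the authors' deposited table of called genes, whose smallest absolute log2 fold change was 1.001.

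**Figure D1:**
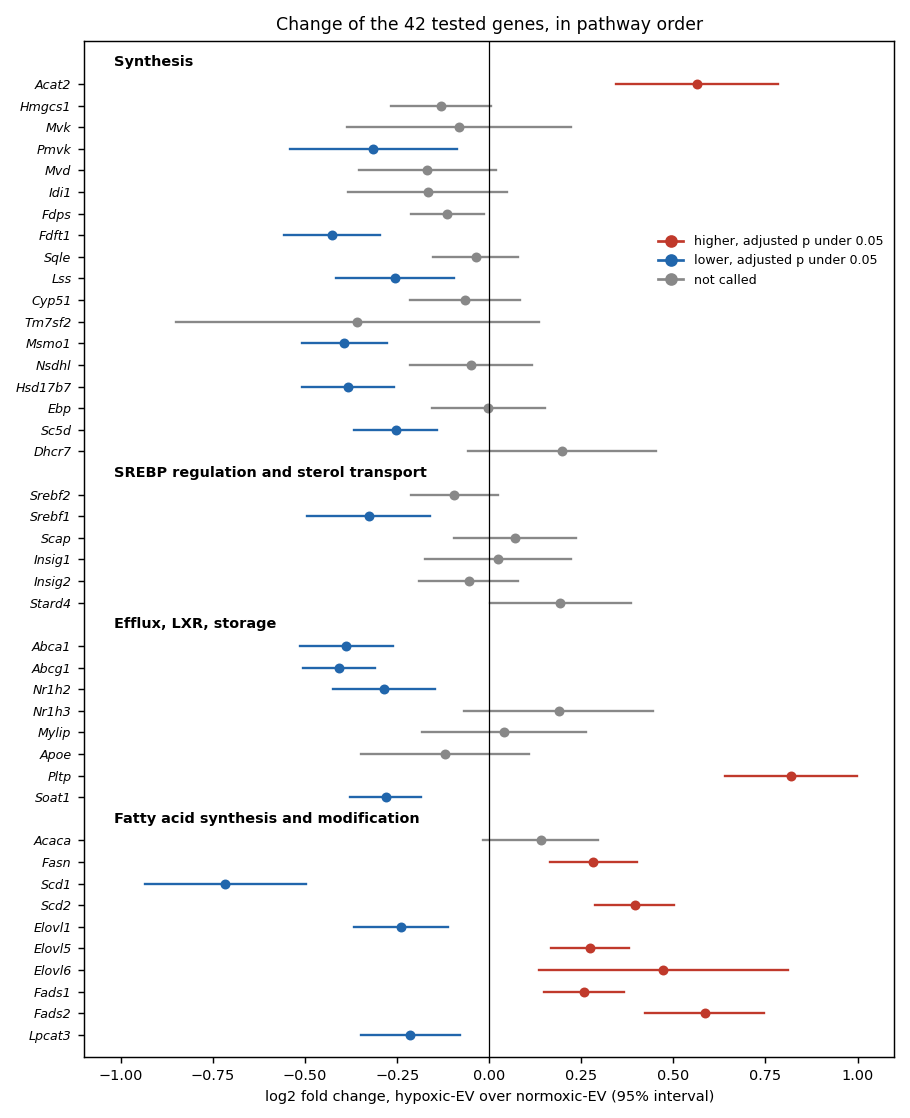
Log2 fold change of hypoxic-EV over normoxic-EV (x axis) with its 95% interval for the 42 tested genes, grouped by role and in pathway order (y axis), colored by call. The fatty acid genes lie mostly to the right, 6 of 10 called higher, while 6 synthesis genes and 4 efflux and storage genes are called lower.

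The pathway opens with acetyl-CoA units being joined to mevalonate. Acat2, encoding the cytosolic thiolase that joins acetyl-CoA units (ENSMUSG00000023832, chromosome 17, 13161777 to 13179634, GRCm39), was the single synthesis gene that rose. It stood at 7.96, 9.98 and 9.47 CPM in normoxic-EV libraries 1 to 3 and at 13.3, 14.0 and 13.3 CPM in hypoxic-EV, so all hypoxic-EV libraries were above all normoxic-EV libraries. The log2 fold change was 0.56 (SE 0.106, edgeR adjusted p = 0.000177), or 1.48-fold. Its neighbour Acat3, a closely similar gene, had 19 counts over the 6 libraries, against 1326 of Acat2, and reads shared between similar genes cannot be assigned with certainty because the sources used here do not say how multi-mapping reads were counted.

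Hmgcs1, encoding the synthase that makes HMG-CoA and a standard readout of SREBP2 activity, did not pass the test. Its values of 42.8, 38.9 and 40.5 CPM in normoxic-EV and 37.8, 38.7 and 35.2 CPM in hypoxic-EV did not overlap but lay close together. The log2 fold change of -0.13 had a 95% interval from -0.27 to 0.01 (edgeR adjusted p = 0.114). The kinase gene Mvk (log2 fold change -0.08), the decarboxylase gene Mvd (-0.17), the isomerase gene Idi1 (-0.17) and Fdps (-0.11), whose product makes farnesyl diphosphate, were not called either (edgeR adjusted p from 0.058 to 0.684). Pmvk, the phosphomevalonate kinase gene, stood at 10.4 ± 0.573 CPM and 8.30 ± 0.542 CPM and was called lower (log2 fold change -0.32, edgeR adjusted p = 0.0229). That call ended under 6 of 11 other settings, with edgeR or DESeq2 adjusted p between 0.0215 and 0.0906 over all of them, among them those without normoxic-EV replicate 1 (0.0906), normoxic-EV replicate 3 (0.0651), hypoxic-EV replicate 1 (0.0595) and hypoxic-EV replicate 2 (0.0662).

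By adjusted p, the clearest decreases among the synthesis genes were those of Fdft1, Msmo1 and Hsd17b7. Fdft1, encoding squalene synthase, which commits farnesyl diphosphate to sterols (ENSMUSG00000021273, chromosome 14, 63382599 to 63417027), stood at 46.1, 43.4 and 44.4 CPM in normoxic-EV and 32.1, 33.3 and 34.0 CPM in hypoxic-EV. Every hypoxic-EV library was below every normoxic-EV library, and the log2 fold change was -0.43 (SE 0.0623, edgeR adjusted p = 1.01e-05). Ctsb, a cathepsin gene on the other strand, overlaps Fdft1 with 119 times its counts and had a log2 fold change of -0.18, and without a stated strand setting reads in the overlap cannot be told apart. Msmo1, whose product removes methyl groups from sterol intermediates, fell from 62.8, 61.0 and 60.9 CPM to 47.9, 47.0 and 45.7 CPM (edgeR adjusted p = 6.25e-06, log2 fold change -0.39, SE 0.0553). Hsd17b7, the ketoreductase of the same demethylation steps, fell from 48.3, 46.4 and 47.9 CPM to 35.6, 36.5 and 37.1 CPM (edgeR adjusted p = 2.3e-05, log2 fold change -0.38, SE 0.0600). For both genes the groups were well apart, with libraries of a group within about 3 CPM of each other.

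Sc5d, a late sterol desaturase gene, fell from 67.3 ± 2.06 CPM to 56.5 ± 1.80 CPM (edgeR adjusted p = 0.000676). Lss, the gene of lanosterol synthase, was 1.19-fold lower (edgeR adjusted p = 0.00999), a call that ended without normoxic-EV replicate 2 (0.0539). Sqle, encoding squalene epoxidase, a control point of the pathway just after squalene synthase, stood at 55.7, 57.9 and 57.0 CPM in normoxic-EV and 53.9, 54.9 and 57.4 CPM in hypoxic-EV. Those values overlapped, and the log2 fold change of -0.04 had a 95% interval from -0.15 to 0.08 (edgeR adjusted p = 0.621), which does not reach the decrease measured for Fdft1. The demethylase gene Cyp51 (log2 fold change -0.07), the sterol dehydrogenase gene Nsdhl (-0.05) and the isomerase gene Ebp (-0.00) were not called, with 95% intervals within -0.22 and 0.15. Cyp51 overlaps Akap9 on the other strand, at 351% of its counts. Dhcr7, whose product completes cholesterol, showed a log2 fold change of 0.20 (adjusted p = 0.203, edgeR), and it was called higher without normoxic-EV replicate 3 (log2 fold change 0.34, edgeR adjusted p = 0.0467) and without hypoxic-EV replicate 2 (0.31, edgeR adjusted p = 0.0401). Tm7sf2, a sterol reductase gene, was low at 2.47 ± 0.807 CPM and 1.97 ± 0.308 CPM (edgeR adjusted p = 0.234), and it overlaps Vps51 on the same strand, which had 9.18 times its counts.

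In all, 16 of the 18 synthesis genes had a log2 fold change below 0, with a median of -0.15 where that of all genes tested was -0.001. Summed over the 18 genes, the level was 594.7 to 609.6 CPM in normoxic-EV and 528.1 to 538.0 CPM in hypoxic-EV, 11.3% lower by the means. Such a sum is set mostly by abundant members, Fdps alone giving 112 ± 2.85 CPM and 103 ± 0.769 CPM.

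Among the regulators, Srebf1, which encodes SREBP1, was the single gene that changed. Its values were 43.9, 48.9 and 44.3 CPM in normoxic-EV and 39.7, 30.8 and 38.8 CPM in hypoxic-EV, with hypoxic-EV replicate 2 the lowest and no overlap between the groups. The log2 fold change was -0.33 (SE 0.0804, edgeR adjusted p = 0.00227). Rai1, which overlaps Srebf1 on the opposite strand and had 98.8% as many counts, showed a log2 fold change of -0.03. Srebf2, which encodes SREBP2, the main activator of the synthesis genes, stood at 67.5, 72.0 and 74.4 CPM and at 68.1, 62.9 and 69.5 CPM, overlapping between the groups (log2 fold change -0.09, 95% interval -0.21 to 0.02, edgeR adjusted p = 0.19). Insig1, both a brake on SCAP and an SREBP target, stood at 12.9, 12.3 and 13.7 CPM in normoxic-EV and at 14.0, 12.8 and 12.9 CPM in hypoxic-EV, again overlapping (log2 fold change 0.02, 95% interval -0.17 to 0.22, edgeR adjusted p = 0.869).

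Scap and Insig2 did not pass the test, with log2 fold changes of 0.07 and -0.06 (edgeR adjusted p = 0.499 and 0.511). Scap was called higher without hypoxic-EV replicate 2 (log2 fold change 0.17, edgeR adjusted p = 0.0314). Stard4, encoding a cytosolic sterol carrier under SREBP control, stood at 16.8 ± 1.52 CPM and 19.2 ± 1.86 CPM (edgeR adjusted p = 0.0954), and was called higher without hypoxic-EV replicate 1 (log2 fold change 0.26, edgeR adjusted p = 0.0453).

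The efflux pumps were lower with hypoxic-EV. Abca1, whose product loads cholesterol and phospholipid onto lipid-poor apolipoproteins (ENSMUSG00000015243, chromosome 4, 53030787 to 53159895), stood at 64.8, 74.3 and 74.1 CPM in normoxic-EV and at 56.0, 54.7 and 52.7 CPM in hypoxic-EV. Abcg1, whose product passes cholesterol to mature lipoproteins (ENSMUSG00000024030, chromosome 17, 31276649 to 31336962), stood at 162, 162 and 164 CPM and at 122, 118 and 127 CPM. For neither pump did the groups overlap, and their log2 fold changes were -0.39 (SE 0.0602, edgeR adjusted p = 2.17e-05) and -0.41 (SE 0.0469, edgeR adjusted p = 4.1e-07). Of the LXR genes, Nr1h2, encoding LXR beta, fell from 63.7 ± 2.70 CPM to 52.1 ± 5.16 CPM (edgeR adjusted p = 0.00145). Nr1h3, encoding LXR alpha, was not called, at 7.53 ± 0.709 CPM and 8.6 ± 0.944 CPM (log2 fold change 0.19, 95% interval -0.07 to 0.45, edgeR adjusted p = 0.23).

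Pltp, an LXR target encoding the phospholipid transfer protein (ENSMUSG00000017754, chromosome 2, 164681438 to 164699631), went the other way and had the largest change of the 42 tested genes. It rose from 16.6, 15.4 and 16.5 CPM to 30.4, 25.0 and 30.3 CPM, well clear of the normoxic-EV libraries in each case. The change was 1.76-fold (edgeR adjusted p = 1.19e-07, log2 fold change 0.82, SE 0.0860). Ctsa, a protease gene on the other strand, overlaps Pltp with 32.9 times its counts and showed a log2 fold change of -0.05 (adjusted p = 0.434, edgeR). Apoe, encoding an apolipoprotein that takes up effluxed cholesterol, and Mylip, a ubiquitin ligase gene induced by LXRs, did not pass the test either, with log2 fold changes of -0.12 and 0.04 (edgeR adjusted p = 0.398 and 0.791).

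Soat1, encoding the enzyme that esterifies cholesterol for storage in droplets (ENSMUSG00000026600, chromosome 1, 156252095 to 156301901), was the most abundant of the 43 genes. It fell from 799, 822 and 799 CPM to 634, 666 and 691 CPM, with no overlap (edgeR adjusted p = 4.2e-05, log2 fold change -0.28, SE 0.0462). Per transcript length its level was 82.3 ± 1.53 FPKM in normoxic-EV and 67.7 ± 2.22 FPKM in hypoxic-EV, where Abcg1 stood at 22.2 and 16.8 FPKM and Abca1 at 6.85 and 5.25 FPKM. Ch25h, whose product makes an oxysterol and which is known as an LPS and interferon target in mouse macrophages, was below the filter. It had 4, 3 and 7 counts in normoxic-EV and 3, 1 and 5 counts in hypoxic-EV, near the limit of 3 counts, so no difference was detectable at this depth. The long noncoding RNA gene Gm26902 overlaps Ch25h on the opposite strand with 5.04 times its counts.

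**Figure D2:**
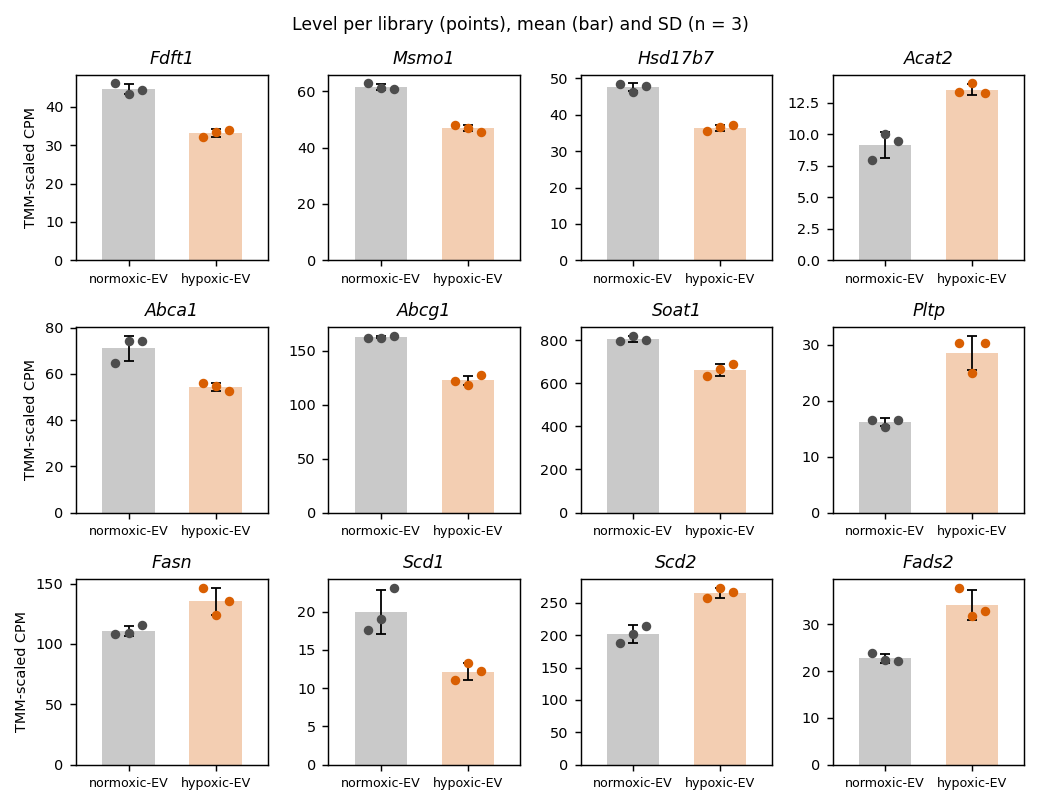
Level in each of the 6 libraries (points, TMM-scaled CPM on the y axis) of 12 genes, with the mean (bar) and SD (n = 3) per vesicle group. In all 12 panels the groups do not overlap: Fdft1, Msmo1, Hsd17b7, Abca1, Abcg1, Soat1 and Scd1 are lower and Acat2, Pltp, Fasn, Scd2 and Fads2 higher in hypoxic-EV.

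Fatty acid genes changed in 9 of 10 cases, in both directions. Fasn, encoding fatty acid synthase, stood at 108, 109 and 116 CPM in normoxic-EV and at 146, 124 and 136 CPM in hypoxic-EV, with no overlap (edgeR adjusted p = 0.000366, log2 fold change 0.28, SE 0.0568). Acaca, encoding the carboxylase that supplies its malonyl-CoA, was not called, at 52.8 ± 6.71 CPM and 58.5 ± 3.81 CPM (edgeR adjusted p = 0.139, log2 fold change 0.14). It was called higher without normoxic-EV replicate 3 (log2 fold change 0.25, edgeR adjusted p = 0.0107), the library with its highest normoxic-EV value.

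The stearoyl-CoA desaturases, which put the double bond into saturated fatty acids, moved apart. Scd1 (ENSMUSG00000037071, chromosome 19, 44382894 to 44396318, minus strand) fell from 17.6, 19.0 and 23.1 CPM to 11, 13.3 and 12.2 CPM. Its log2 fold change of -0.72 (adjusted p = 1.05e-05 in edgeR, SE 0.105) was the largest decrease among the 42 tested genes. Scd2 (ENSMUSG00000025203, chromosome 19, 44282113 to 44295303, plus strand) rose from 187, 203 and 215 CPM to 257, 273 and 266 CPM (edgeR adjusted p = 2.17e-06, log2 fold change 0.39, SE 0.0512). Neither gene's groups overlapped. The ratio of Scd2 to Scd1 in CPM was 10.7, 10.6 and 9.29 in normoxic-EV and 23.3, 20.5 and 21.9 in hypoxic-EV, the latter each above the former. Scd3 and Scd4, which lie beside them, had 37 and 29 counts over all libraries. The desaturases are similar in sequence, so a part of their reads may be shared.

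Among the elongases, Elovl5, which lengthens polyunsaturated fatty acids, rose from 157 ± 7.17 CPM to 189.8 ± 10.5 CPM (edgeR adjusted p = 0.000181, log2 fold change 0.27). Elovl6, which lengthens palmitate, was low, at 4.5 ± 1.19 CPM and 6.26 ± 0.455 CPM, and was called higher (log2 fold change 0.47, edgeR adjusted p = 0.0225). Its call ended without normoxic-EV replicate 1, the lowest library (log2 fold change 0.31, edgeR adjusted p = 0.133), without normoxic-EV replicate 3 (0.0516), without hypoxic-EV replicate 1 (0.0715) and with DESeq2 (0.0631), within adjusted p of 0.00456 to 0.133 over 11 settings. Elovl1, which makes very long saturated chains, fell from 83.3 ± 1.63 CPM to 70.5 ± 6.84 CPM (edgeR adjusted p = 0.00301). It overlaps the mitosis gene Cdc20 on the other strand, at 83.6% of its counts, which had a log2 fold change of 1.3.

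The front-end desaturases of polyunsaturated fatty acid synthesis rose together. Fads2 (ENSMUSG00000024665, chromosome 19, 10040129 to 10079110, minus strand), whose product opens that pathway, stood at 23.7, 22.3 and 22.1 CPM in normoxic-EV and at 37.8, 31.7 and 32.8 CPM in hypoxic-EV. The groups were far apart, and the gene was 1.5-fold higher (edgeR adjusted p = 2.65e-06, log2 fold change 0.58, SE 0.0770). Fads1, its neighbour (chromosome 19, 10160252 to 10174241, plus strand), rose from 87.6 ± 2.42 CPM to 105 ± 5.28 CPM (edgeR adjusted p = 0.000363, log2 fold change 0.26). Fads3, the third gene of the cluster and not among the 43, fell (log2 fold change -0.49, edgeR adjusted p = 0.00773). Lpcat3, an LXR target whose product puts polyunsaturated chains into phospholipids, fell from 41.9 ± 1.54 CPM to 36.1 ± 1.85 CPM (edgeR adjusted p = 0.0103), a call that ended without normoxic-EV replicate 2 (0.0536). Emg1 overlaps it on the other strand with 2.82 times its counts.

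**Figure D3:**
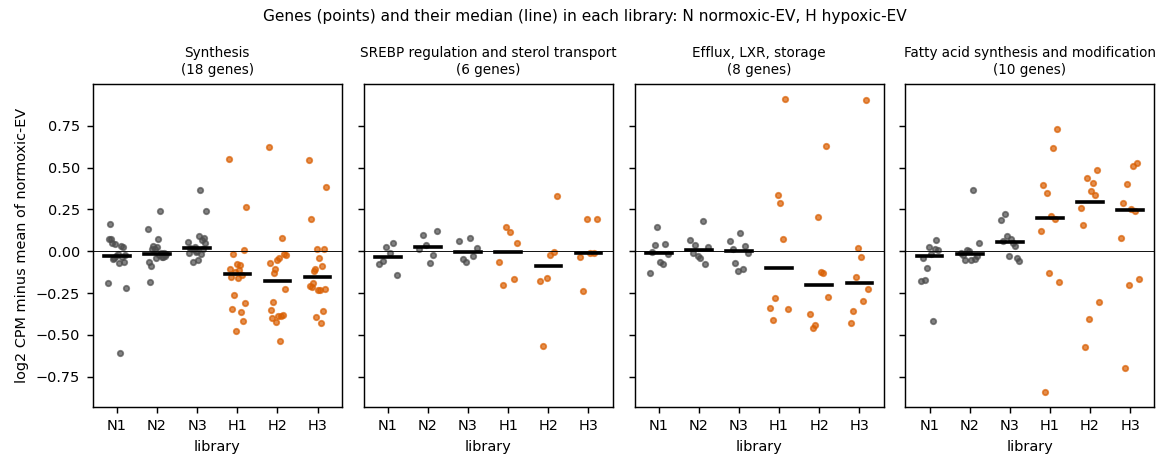
Log2 CPM of each tested gene minus its mean over the normoxic-EV libraries (y axis), in each library (x axis; N normoxic-EV, H hypoxic-EV), by role, with the median as a line. The medians of the 3 hypoxic-EV libraries are -0.18 to -0.13 for synthesis, -0.20 to -0.10 for efflux and storage, and 0.20 to 0.30 for fatty acid genes.

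Set side by side, the median log2 fold change was -0.15 over 18 synthesis genes, -0.02 over 6 regulation genes, -0.20 over 8 efflux and storage genes and 0.265 over 10 fatty acid genes. Among the values behind these medians the efflux list spans -0.41 to 0.82 and the fatty acid list -0.72 to 0.58, so neither moved as one. Summed levels were 937 to 991 CPM against 1143 to 1176 CPM for efflux and storage genes, mostly Soat1, and 909 to 919 CPM against 757 to 816 CPM for fatty acid genes, hypoxic-EV before normoxic-EV. In CPM of single genes, 25 of the 42 did not overlap between the groups (59.5%), where 52.8% of all genes tested did not. No test of the lists against each other was made.

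**Figure D4:**
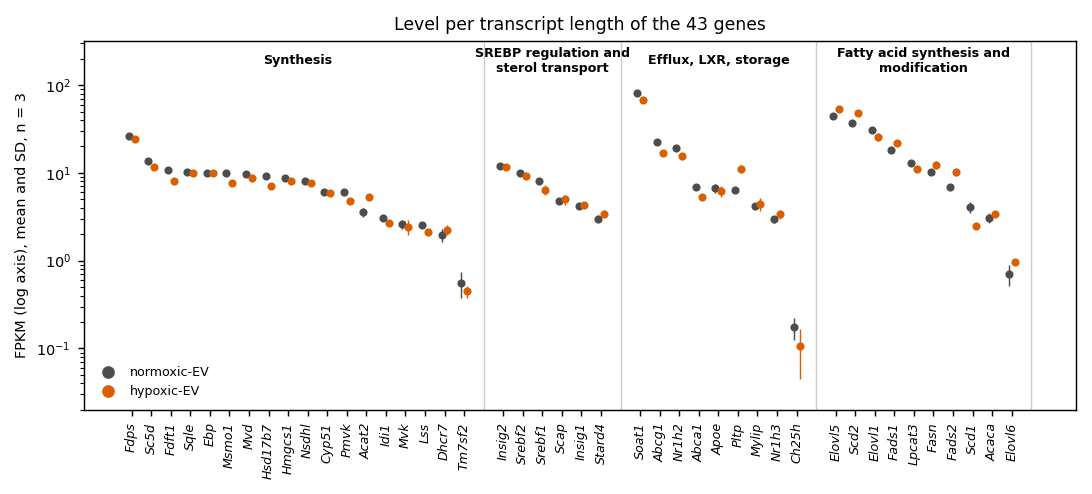
Level per transcript length (FPKM, log axis, mean and SD, n = 3) of the 43 genes in both vesicle groups, ordered within each role by the normoxic-EV level. Levels span from 82.3 FPKM (Soat1) to 0.174 FPKM (Ch25h) in normoxic-EV, far more than any gene differs between the groups.

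Per transcript length, the ranking in normoxic-EV put Soat1 first, followed by Elovl5 at 44.5 ± 2.03 FPKM, Scd2 at 36.9 ± 2.58 FPKM, Elovl1 at 30.5 ± 0.547 FPKM and Fdps at 26.5 ± 0.741 FPKM. Scd1 lay at 4.07 ± 0.589 FPKM, so Scd2 was the main desaturase transcript of these cells by level. Fdps led the synthesis genes, most of which lay between 2 and 14 FPKM. Among the synthesis genes, Sqle and Ebp were neighbours in that order, at 10.2 ± 0.23 and 10.1 ± 0.525 FPKM, and differed by less than their spread.

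Further genes of the same pathways were counted from lists. Of 9 other synthesis genes, 2 rose and 3 fell, 55.6% called beside the 44.2% of all genes tested. Por, encoding the reductase that supplies electrons to sterol-modifying enzymes, fell from 526 CPM to 341 CPM by the means (log2 fold change -0.63, edgeR adjusted p = 3.74e-09), and Lbr, which encodes a sterol reductase that is also a nuclear envelope protein, rose by 0.44 on that scale. Of 17 other regulators and sterol transporters, 1 rose and 9 fell, 58.8% called and 52.9% lower where 21.5% of all genes were lower. The sterol transfer gene Gramd1b, an LXR target, fell by 0.76 on the log2 scale (edgeR adjusted p = 1.9e-11). Log2 fold changes were -0.38 for Erlin1, of an endoplasmic reticulum protein of sterol control, -0.49 for Spring1, encoding a factor for SREBP activation, and 0.3 for the SREBP protease gene Mbtps1.

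Of 14 tested efflux and LXR genes outside the 43, 9 were higher and 1 lower, 71.4% called and 64.3% higher where 22.7% of all genes were higher. Arl4c, an LXR target, rose from 43.6 CPM to 100.1 CPM (edgeR adjusted p = 1.78e-12, log2 fold change 1.20), and in the authors' deposited table it had a log2 fold change of 1.20. Lipa, the gene of the lysosomal lipase that frees cholesterol from esters, and the lipoprotein lipase gene Lpl had log2 fold changes of 0.67 and 0.59. Soat2, the other cholesterol-esterifying gene, fell by 0.72 on the log2 scale (edgeR adjusted p = 1.13e-05). The pumps Abca1 and Abcg1 and the LXR target Gramd1b were thus lower in the same libraries in which the LXR targets Pltp and Arl4c were higher. Of the other genes named here as LXR targets, Lpcat3 was lower and Mylip was not called.

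Of 24 tested further genes of fatty acid metabolism, 6 rose and 4 fell, a called share of 41.7% beside the 44.2% of all genes. Acsl5, encoding an acyl-CoA synthetase, and Lpcat1 showed log2 fold changes of 0.49 and 0.36, and Lpcat2, like Lpcat1 a gene of phospholipid remodelling, 0.33. Acsl4, encoding the synthetase that prefers arachidonate, fell by 0.76 on the log2 scale (edgeR adjusted p = 2.27e-10), and Mid1ip1, an activator of the carboxylase, and the transcription factor gene Mlx had -0.42 and -0.49.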

How the data were processed

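Total RNA was enriched for poly(A) RNA and its 6 libraries were read paired-end, per the labels' protocols. HISAT2, featureCounts, DESeq2 and build GRCm39 appear in the submitters' processing notes; the sources used here do not give versions, annotation, strand or multi-mapping settings. The deposited files hold a whole-number count for each gene, FPKM values (each a count divided by library total and by a gene length, within a relative tolerance of 1e-06 for all 26398 genes with a count) and the authors' table of log2 fold changes and p-values for 462 called genes.

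From the counts, edgeR 4.0.16 (R 4.3.3) was run with filterByExpr (minimum count 10, minimum total 15), TMM scaling, a two-sided quasi-likelihood F-test and Benjamini-Hochberg adjustment over 13303 genes. CPM are TMM-scaled, the SE is the absolute log2 fold change divided by the square root of F, and intervals are 95%. Groups came from the treatment labels. These name no separate cultures, so a p-value here reflects only the spread among libraries, which may be technical. Replicate pairs differed by more than counting noise (chi-square per degree of freedom 2.72 to 5.84, over genes that had 20 or more in a pair). Limits from counts cover counting error only.

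Values per library were printed for called genes with at least 10 CPM and an absolute log2 fold change of at least 0.5, for genes of central role, and, chosen after their values were seen, for Fdft1, Msmo1, Hsd17b7 and Soat1. From the further lists the called genes of lowest p were named, at most 3 per list and direction; Fads3 was named after its value was seen. The members and lists were chosen with earlier results of these data known. Promoters are those of RefSeq, GRCm38.p6. Alternatives were DESeq2 size factors (RLE), the DESeq2 1.42.0 Wald test, no filter, a stricter filter (1 CPM in 3 libraries), the replicate number as a block and each library left out. The edgeR fit was tested on simulated data, with far fewer changed genes than in these data. It recovered 58% of the 1.25-fold, 70.8% of the 1.5-fold and 83.7% of the 2-fold changes. Of its calls there, at an adjusted p under 0.05, 8.43% were false.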

Additional observations from a re-analysis of the deposited data

How the results depend on the processing

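Of the 22 called genes, 18 kept call and direction under all 11 settings; the exceptions, Pmvk, Lss, Elovl6 and Lpcat3, are given above. Of 20 tested genes not called, 4 (Dhcr7, Scap, Stard4 and Acaca) were called under at least 1 setting, each with a library left out. Counts of members stood at 7 to 10 higher and 12 to 14 lower with each library left out, 7 and 13 with DESeq2. Ranges with each library left out were 1 to 2 synthesis genes higher, 0 to 1 regulation genes higher, a median of -0.173 to -0.132 over synthesis genes and of -0.233 to -0.149 over efflux genes. The sign of 4 genes not called turned: over the libraries left out Mvk ran from -0.256 to 0.0406, Ebp from -0.0279 to 0.0439, Insig1 from -0.0191 to 0.0711 and Mylip from -0.0842 to 0.12, and Ebp stood at 0.000693 with DESeq2 and 0.0141 without a filter. The cause was not tested. Without a filter, the fitted log2 fold change of Ch25h was -0.68 (adjusted p = 0.584, edgeR).

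The replicate numbers of the titles are shared by the groups, but same-numbered libraries did not deviate together (correlations of -0.0187, -0.0349 and -0.0221 across genes). Correlations of differently numbered libraries ran from -0.0609 to 0.0786. With 3 libraries per group, these values cannot show whether same-numbered libraries shared a culture or a batch. With the replicate number as a block, 8 members were higher and 14 lower, and 2910 and 2752 of all genes, and no call of a member changed. Depth limits Ch25h, at 1 to 7 counts per library.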
